A study of Mus musculus with 6 samples.

Results

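The SBK family comprises 3 protein kinase genes, Sbk1, Sbk2 and Sbk3. Its members were taken by gene symbol from a table of 24062 symbols, and all 3 were among the 13629 genes that passed a filter on low counts. They were selected on the log2 fold changes and adjusted p-values of Sbk3 and Sbk2 between Med12cKO and CTL ventricles in these same libraries. Their differences between the groups are therefore given as a description, without a test. RNA-seq read counts came from heart ventricles of postnatal day 1 male mice of the strain C57/Bl6N, in 3 Med12cKO libraries (CrePOS, a cardiac-specific Med12 knockout) and 3 CTL libraries (CreNEG). The labels do not name the promoter that drives Cre, and do not say whether the controls carry a floxed Med12 allele. Cre was present in the Med12cKO group alone, and its effect and that of losing Med12 cannot be told apart. No label ties a library to a single animal, and the p-values therefore reflect sample-to-sample spread that may be technical.

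SBK kinases (SH3 domain binding kinases) are a small branch of the serine/threonine protein kinases. Sbk1 was first described in brain, and Sbk2 and Sbk3 are known as genes with high transcript levels in heart muscle. Protein kinases of this kind transfer phosphate from ATP to other proteins, but the substrates of the SBK kinases are not well established. Med12 encodes a subunit of the kinase module of Mediator, the complex that connects transcription factors to RNA polymerase II.

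The 3 genes lie on mouse chromosome 7, and their models are those of GENCODE M21 on GRCm38. Sbk3 (ENSMUSG00000085272.7, chr7:4965260-4971168) and Sbk2 (ENSMUSG00000030433.15, chr7:4940512-4964406) lie head to tail on the minus strand, with 853 bases between the 2 models. Sbk1 (ENSMUSG00000042978.10, chr7:126272619-126295016) lies on the plus strand, 121301450 bases from the pair. The longest coding transcript of each gene has 4 exons, 3 of them coding, and encodes 342 residues for Sbk3, 362 for Sbk2 and 417 for Sbk1.

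All 3 genes share an internal coding exon of the same length, 203 bases, which is exon 3 in each of these transcripts. It is shown because it displays the family relation and because such copies could exchange reads in counting. Capitals mark the 61 bases (30.0%) that are identical in all 3 genes when the exons are laid side by side without gaps, each read 5′ to 3′ on its own gene's strand.
Sbk3 exon 3, chr7:4969828-4970030, minus strand: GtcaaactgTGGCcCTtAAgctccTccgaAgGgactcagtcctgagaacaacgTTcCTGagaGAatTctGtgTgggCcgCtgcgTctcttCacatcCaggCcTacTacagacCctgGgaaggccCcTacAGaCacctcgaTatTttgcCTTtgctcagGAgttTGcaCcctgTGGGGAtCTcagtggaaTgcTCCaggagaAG
Sbk2 exon 3, chr7:4958830-4959032, minus strand: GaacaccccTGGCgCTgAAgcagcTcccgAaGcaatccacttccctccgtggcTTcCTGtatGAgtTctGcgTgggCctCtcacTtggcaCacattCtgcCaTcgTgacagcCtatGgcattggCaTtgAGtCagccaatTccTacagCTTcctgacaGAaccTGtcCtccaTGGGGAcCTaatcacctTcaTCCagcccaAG
Sbk1 exon 3, chr7:126291043-126291245, plus strand: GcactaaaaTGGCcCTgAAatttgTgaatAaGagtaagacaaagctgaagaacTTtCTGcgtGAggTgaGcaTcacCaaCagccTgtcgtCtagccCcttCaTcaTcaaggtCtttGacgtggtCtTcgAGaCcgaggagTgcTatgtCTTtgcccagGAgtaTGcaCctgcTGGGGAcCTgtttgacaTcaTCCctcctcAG
In pairs the exons were 47.3% identical between Sbk3 and Sbk2, and 46.8% identical between either of them and Sbk1. The longest identical run was 7 bases for Sbk3 with Sbk2, 7 for Sbk3 with Sbk1 and 9 for Sbk2 with Sbk1. Across whole transcripts, 0 of the 3147 stretches of 50 bases in Sbk3, 0 of 3144 in Sbk2 and 0 of 4217 in Sbk1 also occurred in transcripts of another gene. None of the 3 genes shares exon bases with another gene model. Their counts therefore had no annotated partner of 50 identical bases with which to exchange reads.

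Sbk3 and Sbk2 also have a promoter window in the RefSeq table (GRCm38.p6), 250 bases before to 50 bases after 1 transcript start. For Sbk3 this is the start of the longest coding transcript, and another Sbk3 transcript begins upstream of it within the window. For Sbk2 it is the start of another transcript, and the longest coding transcript begins downstream, outside the window. Distances below are from these starts alone. Both windows are shown because the 2 neighbours differed between the groups in the same direction. Capitals mark matches, on either strand, to a set of core promoter and cardiac motifs.
Sbk3 promoter, chr7:4970912-4971211, minus strand: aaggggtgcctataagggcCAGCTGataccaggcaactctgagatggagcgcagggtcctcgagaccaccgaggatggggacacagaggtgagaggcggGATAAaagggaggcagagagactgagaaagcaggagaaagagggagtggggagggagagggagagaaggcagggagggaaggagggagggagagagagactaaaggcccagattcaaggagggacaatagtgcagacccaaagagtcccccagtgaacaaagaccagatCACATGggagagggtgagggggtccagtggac
Sbk2 promoter, chr7:4964357-4964656, minus strand: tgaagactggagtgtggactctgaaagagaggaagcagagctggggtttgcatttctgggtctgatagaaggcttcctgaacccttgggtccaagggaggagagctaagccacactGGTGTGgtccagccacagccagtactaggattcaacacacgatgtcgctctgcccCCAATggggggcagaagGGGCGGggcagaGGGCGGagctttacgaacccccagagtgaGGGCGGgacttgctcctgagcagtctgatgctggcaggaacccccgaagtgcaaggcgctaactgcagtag
The Sbk3 window held 1 GATA match (GATAA), opening 151 bases before the start, and 2 E-box matches (CANNTG), opening 231 bases before the start and at base 19 after it. The Sbk2 window held 3 GC boxes (GGGCGG), opening 62, 50 and 21 bases before the start. It also held a CCAAT box (CCAAT), opening 79 bases before the start, and a T-box match (GGTGTG), opening 134 bases before it. No searched motif occurred in both windows, and no 2 matches overlapped. The letters of the TATA box (TATAAA), NKX2-5 (CAAGTG), TEAD (GGAATG), the CArG box and the MEF2 site were in neither window. Among 32851 windows of the same length, GATAA was present in 25.4%, CANNTG in 72.3%, GGGCGG in 35.7%, CCAAT in 37.4% and GGTGTG in 19.0%. The motifs without a match were present in 13.6% (TATAAA), 13.6% (CAAGTG), 14.7% (GGAATG), 1.63% (CArG box) and 3.19% (MEF2 site) of the windows. GC content was 58.0% in the Sbk3 window and 58.7% in the Sbk2 window, against a median of 52.7% over all windows. The 2 windows had no common run longer than 8 bases. These matches describe letters in the windows and are not evidence of binding.

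Before the members, the target of the knockout was examined. Med12 measured 61.4, 84.8 and 41.2 CPM in Med12cKO replicates 1 to 3 and 103, 175 and 113 CPM in CTL replicates 1 to 3. These groups did not overlap, as in 8.23% of all genes tested, and the log2 fold change was −1.06 (SE 0.30). For Med12 the edgeR adjusted p was 0.765 and the DESeq2 adjusted p 0.0246. The counts are per gene in bulk ventricle, so the level left does not measure the degree of knockout. CPM here are counts divided by the library total and put on a common scale with TMM factors. Library totals ran from 8453346 to 10911698 counts, which sets the floor of 3 counts at 0.275 to 0.355 CPM. Such limits and the counting intervals below cover counting error only. The 15 T cell and thymus markers summed to 1220 CPM in Med12cKO replicate 1 and 1205 CPM in CTL replicate 3, against 19.8 to 22.1 CPM in the other 4 libraries. Those 2 libraries stand apart, and the log2 fold changes of the members are also given without them.

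Sbk3 had 88, 83 and 92 reads in Med12cKO replicates 1 to 3 and 602, 798 and 705 reads in CTL replicates 1 to 3. After scaling these were 9.90, 8.17 and 9.88 CPM in Med12cKO and 69.1, 75.9 and 67.3 CPM in CTL. All 3 Med12cKO libraries were low and within a narrow range, and the lowest CTL library was 6.79 times the highest Med12cKO library. Means were 9.32 ± 0.992 CPM in Med12cKO and 70.8 ± 4.52 CPM in CTL (SD, n = 3 each), which leaves 13.2% of the CTL level. The fitted log2 fold change, Med12cKO over CTL, was −2.93 (SE 0.14). Without the 2 libraries that carry T cell transcripts it was −3.01. It was the most negative of the log2 fold changes of all 13629 genes tested.

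Sbk2 had 64, 104 and 97 reads in Med12cKO replicates 1 to 3 and 360, 572 and 483 reads in CTL replicates 1 to 3. Scaled levels were 7.20, 10.2 and 10.4 CPM in Med12cKO and 41.3, 54.4 and 46.1 CPM in CTL. The groups did not overlap, and the lowest CTL library was 3.97 times the highest Med12cKO library. The Med12cKO mean was 9.29 ± 1.81 CPM and the CTL mean 47.3 ± 6.60 CPM (SD, n = 3 each), so that 19.6% of the CTL level was left. The fitted log2 fold change was −2.34 (SE 0.18), and −2.22 without the 2 libraries with T cell transcripts. It ranked 3 from the lowest of all genes tested. The shallowest value, 64 reads in Med12cKO replicate 1, has an exact Poisson 95% interval of 49.3 to 81.7 reads.

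Sbk1 had 808, 836 and 866 reads in Med12cKO replicates 1 to 3 and 860, 1116 and 1240 reads in CTL replicates 1 to 3. Scaled levels were 90.9, 82.3 and 93.0 CPM in Med12cKO and 98.8, 106 and 118 CPM in CTL. Here the groups nearly met, with the lowest CTL library 1.06 times the highest Med12cKO library. Sbk1 averaged 88.8 ± 5.66 CPM in Med12cKO and 108 ± 9.90 CPM in CTL (SD, n = 3 each), so 82.4% of the CTL level was left. The fitted log2 fold change was −0.28 (SE 0.12), rank 836 from the lowest of 13629. Without the 2 libraries with T cell transcripts, 1 of which is CTL replicate 3, it was −0.23. The remaining share of the CTL level was thus 82.4% for Sbk1, against 19.6% for Sbk2 and 13.2% for Sbk3.

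**Figure D1:**
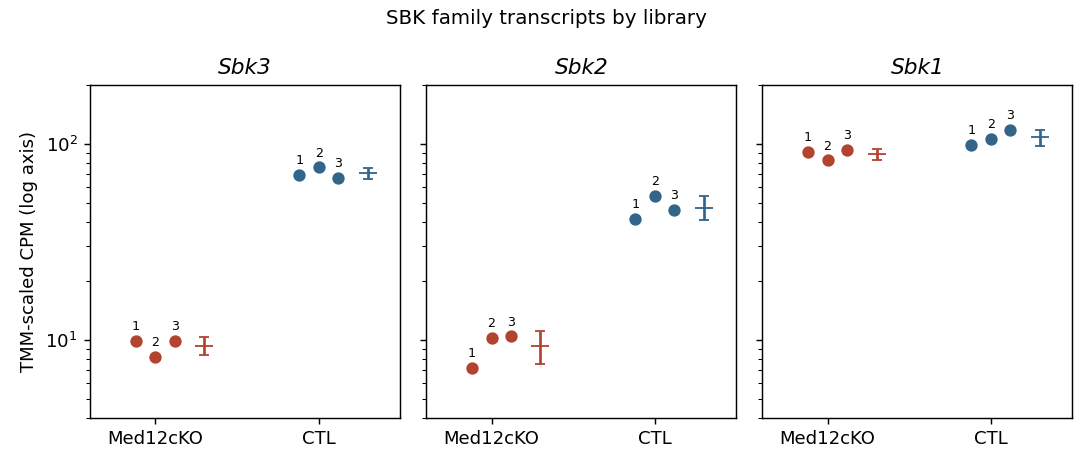
TMM-scaled CPM of Sbk3, Sbk2 and Sbk1 on a log axis in each library, with the replicate number above each point and the group mean ± SD (n = 3) beside the points. Sbk3 and Sbk2 lie between 7.20 and 10.4 CPM in the Med12cKO libraries and at 41.3 CPM or more in the CTL libraries, while the Sbk1 groups nearly meet.

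By the edgeR test across all genes that led to their choice, 2 of the 3 members had an adjusted p under 0.05 and both were lower. Of the genes tested 0.0220% met that rule, 0.0147% lower and 0.00734% higher, and DESeq2 called 0.477%. The lower share under edgeR consists of these 2 members alone. All 3 members had groups that did not overlap, as did 8.23% of the genes tested, 3.64% with every Med12cKO library lower and 4.59% with every one higher. A log2 fold change below 0, which all 3 members had, was found for 47.8% of the genes. Since these values chose the members, nothing is read from either count. The median log2 fold change of all genes tested was 0.008. Across the 17 other fits and scalings, the log2 fold change of Sbk3 stayed between −3.01 and −2.63, that of Sbk2 between −2.50 and −2.06, and that of Sbk1 between −0.34 and 0.02.

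**Figure D2:**
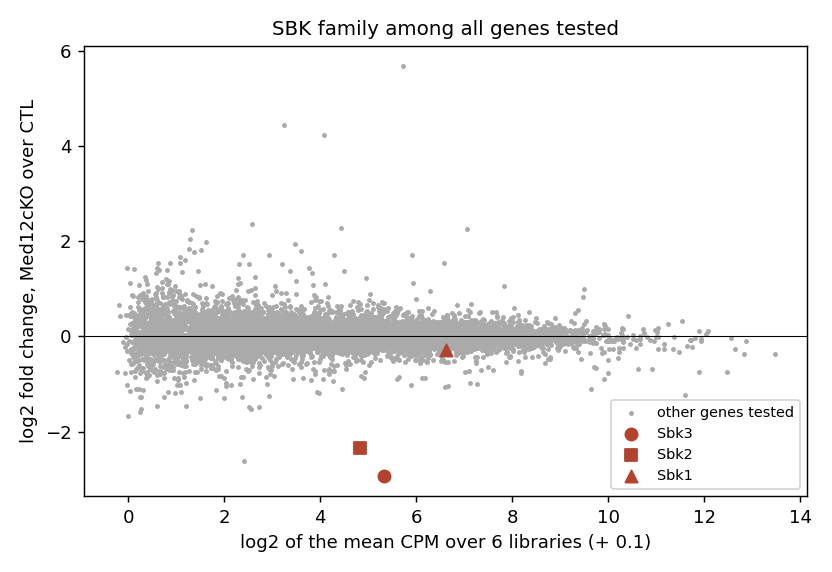
Log2 fold change, Med12cKO over CTL, against the log2 of the mean CPM over the 6 libraries for the 13629 genes tested. Sbk3 at −2.93 and Sbk2 at −2.34 lie below nearly all other genes, and Sbk1 at −0.28 lies near the bulk.

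Because reads were counted per gene, levels were compared between members only per kb of exon. By the union of annotated exons, Sbk1 had 21.5, 19.5 and 22.0 CPM per kb in Med12cKO replicates 1 to 3 and averaged 25.5 ± 2.34 CPM per kb in CTL. Sbk3 averaged 2.92 ± 0.310 CPM per kb in Med12cKO and 22.1 ± 1.41 in CTL (SD, n = 3 each). Sbk2 averaged 2.95 ± 0.574 CPM per kb in Med12cKO, and had 13.1, 17.3 and 14.7 CPM per kb in CTL replicates 1 to 3. By this length, Sbk2 and Sbk3 differed by less than their spread in Med12cKO. In CTL, Sbk2 was the lowest of the 3 and the Sbk3 and Sbk1 ranges met. With the length of the longest coding transcript instead, Med12cKO levels were 2.96 ± 0.315 CPM per kb for Sbk3 and 4.15 ± 0.808 for Sbk2, and every Sbk2 value was above every Sbk3 value. By the same length, CTL levels were 22.5 ± 1.43 CPM per kb for Sbk3 and 21.1 ± 2.95 for Sbk2, which differ by less than the spread. The order of the 2 means was thus the same by both lengths in each group. Whether the 2 genes differed by more than their spread depends, in both groups, on which Sbk2 exons are taken as expressed.

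The ratio of Sbk3 to Sbk2, per kb of exon, was 1.35, 0.786 and 0.934 in Med12cKO replicates 1 to 3 and 1.65, 1.37 and 1.44 in CTL replicates 1 to 3. Every Med12cKO ratio was lower, though that of replicate 1 nearly met the lowest CTL ratio. The means were 1.02 ± 0.295 in Med12cKO and 1.49 ± 0.143 in CTL (SD, n = 3 each), a difference of −0.57 on the log2 scale. With transcript lengths the means were 0.738 ± 0.212 in Med12cKO and 1.07 ± 0.103 in CTL, with the same difference. The shares of the 3 genes in plain CPM also differed between the groups. These shares are not divided by exon length, which is 4227 bases for Sbk1, 3147 for Sbk2 and 3197 for Sbk3. They therefore weight Sbk1 more, and compare the groups rather than the members. Sbk1 made up 82.7% ± 1.32 of the summed CPM of the 3 genes in Med12cKO and 47.7% ± 3.12 in CTL. Sbk3 made up 8.67% ± 0.529 in Med12cKO and 31.4% ± 2.09 in CTL, and Sbk2 made up 8.68% ± 1.81 in Med12cKO and 20.9% ± 1.84 in CTL. The summed level was 107 ± 6.31 CPM in Med12cKO and 226 ± 14.5 CPM in CTL (SD, n = 3 each).

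Within the Med12cKO group, Sbk3 and Sbk1 were lowest in replicate 2, Sbk2 in replicate 1, and Med12 itself in replicate 3. The Sbk3 order rests on 83 reads against 88 and 92, whose counting intervals overlap. Within CTL, Sbk3, Sbk2 and Med12 were all highest in replicate 2, and Sbk1 was highest in replicate 3.

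Set among 24 kinases of striated muscle, the members had middling levels in CTL. Per kb of exon, Sbk3 ranked 23 of 27 in Med12cKO and 13 of 27 in CTL, where its neighbours in the order were the giant sarcomere kinase Ttn at 22.7 ± 3.07 CPM per kb and the calcium-dependent kinase Camk2g at 21.1 ± 2.14. Sbk2 ranked 22 of 27 in Med12cKO and 16 of 27 in CTL. Sbk1 ranked 14 of 27 in Med12cKO and 10 of 27 in CTL, beside Speg, a kinase of the sarcoplasmic reticulum junction, at 26.8 ± 5.74 CPM per kb. In CTL, Sbk3 and Sbk1 differed from both neighbours in the order by less than the spread. Each CTL library of Sbk2, the lowest at 13.1 CPM per kb, lay above the mean of its lower neighbour Camk2d, 11.1 ± 1.17. In Med12cKO the neighbours of Sbk2 and Sbk3 were the pseudokinase gene Trib1 at 3.34 ± 0.333 CPM per kb and Hunk at 2.89 ± 0.553, both within the spread. Against the 13026 genes tested with an exon length, Sbk3 lay between the 26.4 and 31.7 percentile in the Med12cKO libraries and between the 81.2 and 83.5 percentile in the CTL libraries.

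Of the 24 other muscle kinases listed, 23 were tested. With edgeR 0 passed over all genes, against 0.0220% of all genes tested, and DESeq2 called 0, against 0.477%. With limma-voom 0 were called as well. At shares this low, nothing is read from 0 calls in this list, or among the neighbours and lists below. At an unadjusted edgeR p under 0.05, 4 were higher and 0 lower, against 2.16% and 1.61% of all genes tested. Their median log2 fold change was 0.11, with 15 above 0 and 8 below. Among the most abundant, the log2 fold change was −0.02 (SE 0.18) for Ttn and −0.09 (SE 0.14) for the cardiac myosin light chain kinase gene Mylk3.

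**Figure D3:**
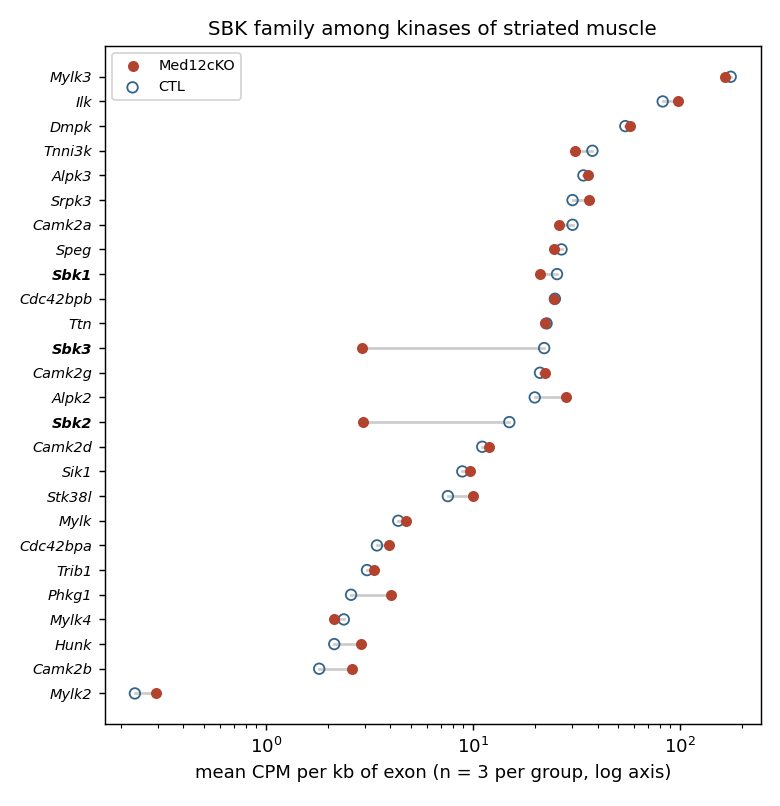
Mean CPM per kb of exon (log axis, n = 3 per group) of the 3 members and 23 of the 24 listed kinases of striated muscle, ordered by the CTL level, with filled circles for Med12cKO and open circles for CTL. Sbk3 and Sbk2 move to 2.92 and 2.95 CPM per kb in Med12cKO, where the CTL mean of Sbk3 is 22.1 CPM per kb and the CTL libraries of Sbk2 lie between 13.1 and 17.3.

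The genes around the Sbk2 and Sbk3 pair were examined next, since position and not expression selected them. Within 500 kb of the pair, 28 other genes were tested. With edgeR 0 of them passed over all genes, 2 were lower and 0 higher at an unadjusted p under 0.05 (of all genes tested 3.78% were at that level, 1.61% lower and 2.16% higher), and limma-voom called 0. DESeq2 called 2, Zfp579 and Tnnt1, against 0.477% of all genes tested. The neighbours split evenly, 14 above 0 and 14 below, with a median log2 fold change of −0.01. The groups did not overlap in 3 of the 28, against 8.23% of all genes tested.

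Zfp579, a zinc finger protein gene on the same strand, is the nearest gene on the Sbk3 side, with 12.3 kb between the models. It measured 40.2, 45.5 and 60.7 CPM in Med12cKO replicates 1 to 3 and 104, 83.5 and 81.5 CPM in CTL replicates 1 to 3. The groups did not overlap. The means were 48.8 ± 10.6 CPM in Med12cKO and 89.7 ± 12.5 CPM in CTL (SD, n = 3 each), with a log2 fold change of −0.88 (SE 0.17). The edgeR quasi-likelihood test gave an unadjusted p of 0.000580 and an adjusted p of 0.239, and DESeq2 an adjusted p of 0.00180. In the 15 other fits besides DESeq2 the adjusted p of Zfp579 ran from 0.174 to 1.000, so edgeR and limma-voom did not call it under any of them.

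Tnnt1, which encodes slow skeletal troponin T, lies 424 kb from the pair on the Sbk2 side. It measured 33.3, 37.3 and 36.1 CPM in Med12cKO and 69.6, 62.7 and 59.8 CPM in CTL, with no overlap. Its log2 fold change was −0.85 (SE 0.12), with an edgeR adjusted p of 0.0920 and a DESeq2 adjusted p of 9.6e-06. For Tnni3, the cardiac troponin I gene beside Tnnt1, the log2 fold change was −0.26 (SE 0.21) and the groups overlapped.

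The other genes next to the pair had log2 fold changes within 1 SE of 0. Ssc5d, a scavenger receptor gene on the opposite strand, overlaps the long Sbk2 model without sharing exon bases. It had 38.0 ± 5.81 CPM in Med12cKO and 36.2 ± 7.94 CPM in CTL, a log2 fold change of 0.07 (SE 0.19). On the Sbk2 side, Nat14 (15.5 kb away), Zfp628 (18.5 kb) and Isoc2a (43.5 kb) had log2 fold changes of 0.17 (SE 0.26), −0.12 (SE 0.23) and 0.14 (SE 0.18). Beyond Zfp579 on the Sbk3 side, Fiz1 (35.9 kb) and Zfp524 (43.2 kb) had −0.07 (SE 0.14) and −0.16 (SE 0.25). The gene with the lowest log2 fold change in the window was Eps8l1, at −2.62 with an SE of 1.56. Eps8l1 measured 1.46, 1.28 and 1.61 CPM in Med12cKO and 0.689, 25.1 and 1.05 CPM in CTL, so its difference rests on CTL replicate 2.

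**Figure D4:**
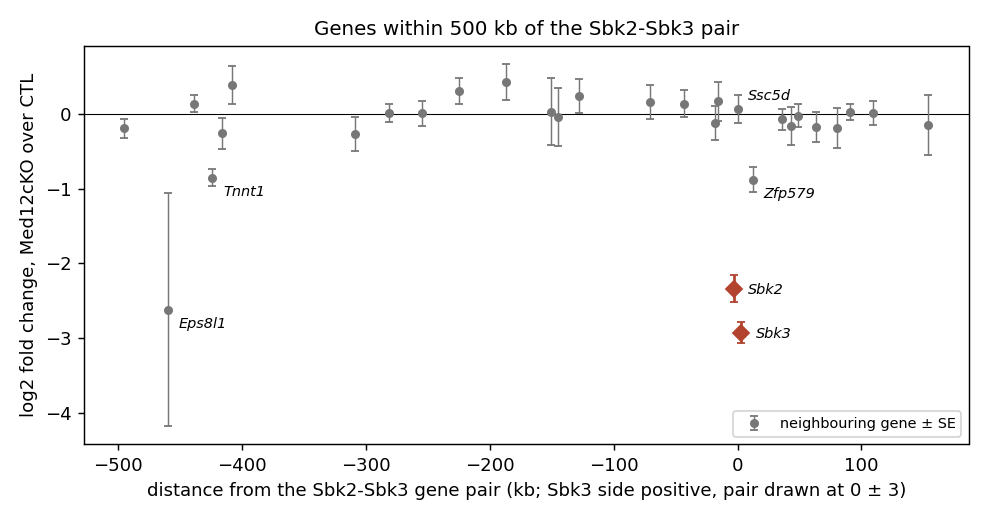
Log2 fold change, Med12cKO over CTL, with its SE for each gene tested within 500 kb of the Sbk2 and Sbk3 pair (circles) and for the pair itself (diamonds), against the distance in kb between the gene models. Most neighbours lie near 0, Zfp579 at 12.3 kb lies at −0.88, Tnnt1 at −0.85, and Eps8l1 has the widest error.

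Around Sbk1, 24 genes were tested within 500 kb, and 0 passed over all genes in edgeR, DESeq2 or limma-voom. In edgeR 1 of them, Gsg1l, had an unadjusted p under 0.05. Gsg1l, which encodes an AMPA receptor-associated protein, measured 43.5 ± 3.92 CPM in Med12cKO and 33.7 ± 3.56 CPM in CTL, a log2 fold change of 0.37 (SE 0.13) with an edgeR adjusted p of 1.000. The median log2 fold change of the 24 was −0.03. Of the nearest genes, the exportin gene Xpo6 had −0.19 (SE 0.16), the lysosomal transporter gene Spns1 −0.11 (SE 0.15), Nfatc2ip −0.05 (SE 0.22) and D430042O09Rik 0.22 (SE 0.22). Lat, a T cell adaptor gene, had 22.7 ± 37.6 CPM in Med12cKO and 23.5 ± 37.7 CPM in CTL, a spread that follows the 2 libraries with T cell transcripts.

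Cardiac marker lists were set beside the members, because Sbk2 and Sbk3 are heart genes. In bulk ventricle, fewer cells of a type and less RNA per cell cannot be told apart. The 15 cardiomyocyte markers summed to 45325, 54462 and 53468 CPM in Med12cKO replicates 1 to 3 and 67095, 66472 and 55306 CPM in CTL replicates 1 to 3. Every Med12cKO sum was lower, the nearest pair by a small margin, and the log2 difference was −0.30. With edgeR 0 of the 15 passed, and 3 were lower and 0 higher at an unadjusted p under 0.05, against 1.61% and 2.16% of all genes tested. DESeq2 called 3, namely Ryr2, Pln and Atp2a2, against 0.477% of all genes tested. The highest markers were Myh6, the main adult myosin heavy chain, at a log2 fold change of −0.38 (SE 0.25), Tnnt2 at −0.38 (SE 0.19) and Actc1 at −0.09 (SE 0.30).

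Dividing by the summed cardiomyocyte markers of the same library left Sbk3 and Sbk2 far apart between the groups. Per 1000 CPM of markers, Sbk3 had 0.219, 0.150 and 0.185 CPM in Med12cKO and 1.03, 1.14 and 1.22 CPM in CTL, a log2 difference of −2.63. Sbk2 had 0.159, 0.188 and 0.195 CPM in Med12cKO and 0.616, 0.818 and 0.834 CPM in CTL, a log2 difference of −2.06. Sbk1 had 2.01, 1.51 and 1.74 CPM in Med12cKO and 1.47, 1.60 and 2.14 CPM in CTL. These Sbk1 ranges overlapped and the log2 difference was 0.02, so its direction depends on this choice of scale. Of the 15 markers in the sum, 13 themselves had a log2 fold change below 0 and 2 above. They include Atp2a2, at 4268 CPM in Med12cKO and 7200 CPM in CTL, and Pln, at 2823 and 4780 CPM. The division therefore cannot be read as a scaling to cardiomyocyte content.

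Chamber markers were examined in the same way. The 21 atrial markers summed to between 4550 and 6235 CPM in Med12cKO and between 4793 and 6334 CPM in CTL, ranges that overlap, and none was at 0. Their median log2 fold change was −0.25. With edgeR 0 of the 21 passed, and DESeq2 called 5, against 0.477% of all genes tested. At an unadjusted edgeR p under 0.05, 8 were lower and 1 higher, against 1.61% and 2.16% of all genes tested. Of the highest, Myl7, the atrial myosin light chain, had a log2 fold change of −1.10 (SE 0.18), the natriuretic peptide gene Nppa 0.18 (SE 0.27) and Myl4 0.16 (SE 0.16). The 15 ventricular markers summed to between 11263 and 16768 CPM in Med12cKO and between 15447 and 20293 CPM in CTL, with a median log2 fold change of −0.27. With edgeR 0 passed, 6 were lower and 2 higher at an unadjusted p under 0.05, and DESeq2 called 4, against the same shares of all genes. Myl2 and Myl3, the ventricular myosin light chains, had −0.27 (SE 0.21) and −0.21 (SE 0.22), while Myh7, the slow myosin heavy chain, −1.24 (SE 0.39).

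**Figure D5:**
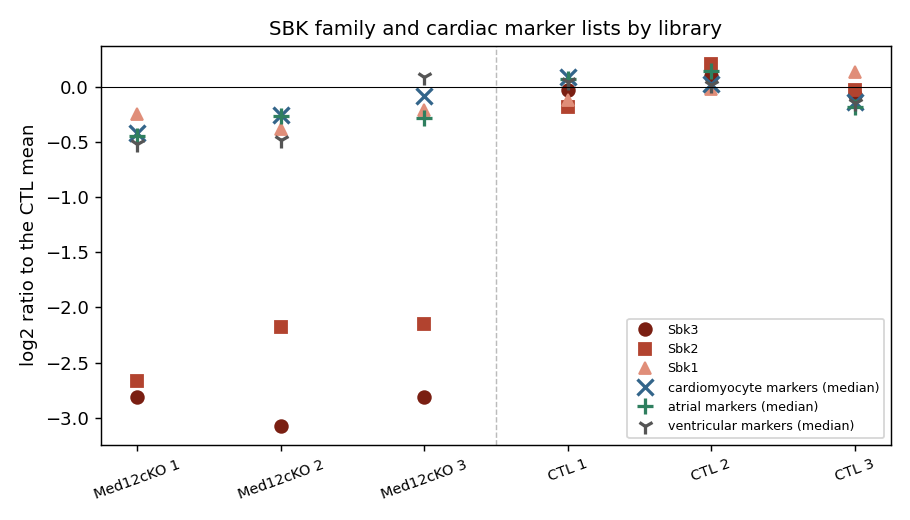
Log2 ratio to the CTL mean in each library for Sbk3, Sbk2 and Sbk1 (filled symbols) and the median of the cardiomyocyte, atrial and ventricular marker lists (crosses), with Med12cKO left of the dashed line. Sbk3 and Sbk2 lie between −3.08 and −2.15 in Med12cKO, while Sbk1 and the list medians stay between −0.52 and 0.09.

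Among 26 cardiac transcription factors, 25 were tested and 0 passed edgeR. At an unadjusted p under 0.05, 4 were lower and 1 higher, against 1.61% and 2.16% of all genes tested. DESeq2 called 2, against 0.477% of all genes tested, and the median log2 fold change was −0.14. The most abundant, Tbx20, Mef2a and Hopx, had log2 fold changes of −0.24 (SE 0.17), −0.17 (SE 0.15) and −0.26 (SE 0.17). Of the 7 genes of the Mediator kinase module, 0 passed edgeR and 1, Med12, was lower at an unadjusted p under 0.05 and called by DESeq2. The median of the 7 was −0.01.

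Markers of other cell types were counted as well. With edgeR, the smooth muscle and pericyte list held 1 call, Cnn1, which was higher at 91.8 ± 21.6 CPM in Med12cKO and 28.4 ± 5.24 CPM in CTL (edgeR adjusted p = 0.0464). The Cnn1 call was lost with DESeq2's size factors, in the 4 libraries whose sample description opens with the letter I, with the replicate number as a block, and without CTL replicate 1, 2 or 3 or Med12cKO replicate 3. The skeletal muscle list had 14 tested genes, whose log2 fold changes had a median of 1.44, and 0 edgeR calls. At an unadjusted edgeR p under 0.05, 2 were higher, against 2.16% of all genes tested. DESeq2 called 2, against 0.477% of all genes tested, and limma-voom called 1. The list's median ratio to the CTL mean was 2.18 on the log2 scale in Med12cKO replicate 1, 0.30 in replicate 2 and −0.05 in replicate 3. The 2 genes called by DESeq2 were higher in every Med12cKO library. Casq1, the calsequestrin of fast skeletal muscle, averaged 221 ± 28.2 CPM in Med12cKO and 46.4 ± 17.3 CPM in CTL (SD, n = 3 each; edgeR adjusted p = 0.0676, DESeq2 adjusted p = 2.2e-18). Acta1, skeletal actin, had 232, 86.8 and 109 CPM in Med12cKO and 55.9, 51.1 and 39.5 CPM in CTL (edgeR adjusted p = 0.709, DESeq2 adjusted p = 0.000250). Fibroblast, endothelial, immune, erythroid, T cell, lung and hepatocyte lists held 0 calls by edgeR, DESeq2 or limma-voom. Only 4 of 15 T cell, 3 of 10 lung, 3 of 10 hepatocyte and 3 of 8 erythroid markers present in the counts passed the low-count filter. For those lists the 0 calls therefore leave most markers untested. At an unadjusted p under 0.05, 1 hepatocyte marker was higher and 1 erythroid marker lower. Lung epithelium markers summed to 452 CPM in Med12cKO replicate 2 and to between 43.9 and 111 CPM elsewhere, and hepatocyte markers to 186 CPM in Med12cKO replicate 1 and between 40.0 and 104 CPM elsewhere. In the erythroid list 4 haemoglobin genes were at 0 in every library. Sbk3 and Sbk2 were low in all 3 Med12cKO libraries. The part of these markers in the members' values was not tested.

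Finally, the genes whose levels over the 6 libraries ran most nearly parallel to each member were listed by Pearson correlation of log2 CPM, among 12950 genes with an average log2 CPM of at least 1. These values are a description over 6 libraries that share the difference between the groups. For Sbk3 the closest were Gja1 (r = 0.996), which encodes connexin 43, the circadian nuclear receptor gene Nr1d1 (0.992), Slc35f6 (0.987), the mitochondrial malic enzyme gene Me3 (0.985) and the sodium channel gene Scn10a (0.982). Sbk2 came next, at rank 6 (0.981). For Sbk2 they were the Polycomb gene Pcgf1 (0.996), the inositol pyrophosphate kinase gene Ppip5k2 (0.994), Gja5 (0.993), which encodes connexin 40, Wbp1l (0.991) and Ivns1abp (0.989), with Sbk3 at rank 10. For Sbk1 they were Paip2b (0.984), Nampt (0.980), Pmel (0.972), Zfp566 (0.970) and Shc1 (0.968). Sbk1 ranked 197 for Sbk3 (0.842) and 280 for Sbk2 (0.816).

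A parallel course did not mean an equal change. Gja1 averaged 651 ± 16.1 CPM in Med12cKO and 1024 ± 32.6 CPM in CTL, a log2 fold change of −0.65, and Gja5 averaged 93.1 ± 10.4 CPM in Med12cKO and 185 ± 23.1 CPM in CTL, a log2 fold change of −0.99. Nr1d1 had a log2 fold change of −0.24 and Pcgf1 −0.25, against −2.93 for Sbk3 and −2.34 for Sbk2. None of the 15 genes named here passed edgeR over all genes, and the lowest edgeR adjusted p among them was 0.0920, for Gja5. DESeq2 called 4 of them, Gja1, Gja5, Ivns1abp and Ppip5k2, with adjusted p-values of 1.6e-08, 6.2e-08, 6.2e-08 and 1.6e-06. It called 0.477% of all genes tested. These 4 were picked for running parallel to Sbk3 or Sbk2, which were chosen on this same contrast, so nothing is read from the calls.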

How the data were processed

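The authors deposited unnormalized read counts, 1 whole number per symbol and library. The submitters' processing notes name TopHat2 2.0.0, featureCounts, edgeR 3.14.0 and the build GRCm38 (mm10). No annotation, strand setting or filter is named in the sources used here, so reads of overlapping genes cannot be assigned with certainty. Groups and replicate numbers came from the sample titles, and columns were matched to samples by name. Between libraries of 1 group, chi-square divided by its degrees of freedom was 15.3 to 31.0, well above sampling noise, so each was kept as a separate sample.

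Counts were fitted in R 4.3.3 with edgeR 4.0.16 (robust quasi-likelihood, TMM, filterByExpr at a minimum count of 10) on all genes, with Benjamini-Hochberg adjustment over the 13629 tested and a threshold of 0.05. The SE is the log2 fold change over the square root of F. DESeq2 1.42.0, limma-voom 3.58.1, other scalings and filters, a replicate block, the letter that opens each sample description and each library left out in turn were the alternatives. The fits were tested on simulated counts.

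The members and the gene lists were chosen with earlier results of these data known. The motifs, the fit without the libraries with T cell transcripts, the scaling to cardiomyocyte markers and the transcript length were added after the data were seen. Named genes were the members, Med12, the nearest 3 tested genes on each side of the pair and of Sbk1 with any that overlapped, neighbours at an unadjusted p under 0.05, the 5 most parallel genes per member, and the 3 most abundant genes of a list with any past the threshold. These list genes are given for the muscle kinases (1 is not reported here) and the cardiac lists; other lists are given by counts, apart from the genes named. Tnni3, Eps8l1 and the genes named for a DESeq2 call were added after their values were seen. Exon lengths came from GENCODE M21, which matched 22758 of the 24062 symbols. Promoter windows came from RefSeq, whose table matched 2 of the 3 members. log2 CPM for correlations used a prior count of 2.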

Additional observations from a re-analysis of the deposited data

How the results depend on the processing

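The log2 fold changes of Sbk3 and Sbk2 stayed negative in all 17 alternatives, and in the 6 fits without 1 library ran from −2.98 to −2.84 and from −2.44 to −2.21. Sbk1 ran from −0.34 to −0.21 there. Dividing by the summed cardiomyocyte markers moved them most, to −2.63 for Sbk3, −2.06 for Sbk2 and 0.02 for Sbk1, whose direction turned. The cause was not tested.

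In edgeR 1 gene was higher and 2 lower over all genes tested. The 2 lower genes were Sbk3 and Sbk2 themselves, which were chosen on this contrast. Nothing is therefore read from the counts of lower calls below. Higher calls were 2 in the 4 libraries without T cell transcripts, 2 with library totals, 2 with limma-voom, 32 with DESeq2, and 0 with DESeq2's size factors, with the letter I libraries or with the replicate block. Lower calls were 33 with DESeq2 and 1 with the letter I libraries. Leaving out 1 library gave 0 or 1 higher (0 without CTL replicate 1 or Med12cKO replicate 3) and 1 or 2 lower (1 without Med12cKO replicate 3). Without CTL replicate 2 or 3 Cnn1 also lost its call, and 1 skeletal muscle marker gained one. Neighbours of the Sbk2 and Sbk3 pair past the threshold were 2 with DESeq2 and 0 otherwise. The replicate block left 2 lower calls. Same-numbered libraries deviated from their group means with correlations of −0.31, 0.44 and −0.35, so the numbers were not taken to pair them.

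With transcript lengths the Sbk3 to Sbk2 ratio became 0.738 in Med12cKO, under 1 in every library, and 1.07 in CTL. Of the 5 genes most parallel to each member, library totals kept 1 for Sbk3, 3 for Sbk2 and 2 for Sbk1, and rank correlation kept 0, 2 and 3. With 3 libraries per group and at most 104 reads per Med12cKO library for Sbk2 and Sbk3, the order of those 2 genes in Med12cKO is not settled by these counts.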
